A study of Mus musculus with 8 samples.

Results

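The effect of losing menin was compared between mouse embryonic stem cells (mESCs) and the pancreatic islet-like endocrine cells (PILECs) made from them. For each gene the effect is the mean log2 signal of menin-null cells minus that of wild-type (wt) cells. The difference of the effects is the effect in PILECs minus the effect in mESCs, so that it is positive where the gene stood relatively higher after menin loss in PILECs than in mESCs. All 8 expression arrays of the series entered the comparison, and 18193 genes were tested, each through whichever of its probe sets had the highest mean signal. Genes were split by whether at least 1 group mean reached a log2 signal of 7 in each cell type: 9820 genes reached it in both cell types, 1040 in mESCs only, 1202 in PILECs only and 6131 in neither. The limit of 7 is a convention and not a measured background. Close to it, the lowest highest group mean that counted as reaching it in mESCs was 7.000015 and the highest that did not was 6.99886, and 471 genes in mESCs and 448 in PILECs lay within 0.1 of the limit.

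Menin, the product of Men1, is a nuclear protein whose loss causes tumours of the pancreatic islets, parathyroid and pituitary. It is a subunit of the MLL1 and MLL2 histone methyltransferase complexes, which place trimethylation on lysine 4 of histone H3 at promoters. Through these complexes it is known for maintaining the expression of Hox genes, and in the endocrine pancreas for restraining cell division.

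The wt mESCs were of the line TC-1 on a 129S6/SvEvTac background, and the menin-null mESCs came from the Men1-inactivated line 3.2N. Both lines were grown on irradiated feeder cells with leukaemia inhibitory factor, and were freed of feeders by brief plating. Wt and menin-null PILECs were differentiated from the same lines in culture, by withdrawal of that factor, embryoid bodies, serum-free medium with insulin, transferrin and selenium, expansion with N2 and B27 supplements and a fibroblast growth factor, and a final stage with nicotinamide. Each of the 4 groups had 2 arrays from separate cultures. Each genotype was 1 line, so that genotype and line cannot be told apart, and the p-values then rest on variation among cultures of the same line. With 2 arrays against 2, exact permutation of the labels of any gene cannot give a p below 0.333, and all tests below come from a limma model fitted across all genes. A gene is said to be called, or to rise or fall, where the adjusted p was under 0.05.

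The labels were checked against marker genes, summed as linear signal. The 7 stem cell markers summed to between 69548 and 73967 in the 4 mESC arrays and to between 6930 and 10914 in the 4 PILEC arrays. The 10 measured islet markers summed to between 1184 and 1371 in mESCs and to between 1967 and 2440 in PILECs, and Pdx1, Gcg, Iapp and Slc2a2 stayed under 7 in every PILEC group. The hormone Sst read 9.30 and 8.82 in wt and 7.89 and 8.32 in menin-null PILECs, and Chga and Neurod1 were above 7 in all 8 arrays. Markers of neurons summed to between 38507 and 44063 in PILECs, and 8 fibroblast markers to between 17615 and 26540. Markers of several cell types were thus measured in the PILEC arrays, and PILEC is used here as the label of the culture. Wherever a transcript differs between such cultures, fewer cells of a type and less RNA per cell cannot be told apart.

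Men1 itself fell to a similar extent in both cell types on loss of menin by 2 of its 3 probe sets. On the brightest of them the 2 wt mESC arrays read 9.90 and 9.97, the menin-null mESC arrays 7.77 and 7.82, the wt PILEC arrays 10.06 and 9.92, and the menin-null PILEC arrays 7.95 and 8.02. Wt and menin-null arrays did not overlap in either cell type. The effect was -2.14 in mESCs and -2.0 in PILECs, and the difference of the effects was 0.14 with a 95% interval from -0.14 to 0.42 (adjusted p = 0.593). A second probe set had effects of -1.99 and -1.9, and the third, at a mean of 8.15, had effects of only -0.18 and -0.32. The position of the Men1 probe sets within the gene, and so whether they cover the sequence that was inactivated, is not given in the sources used here.

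A difference of the effects was called for 557 of 18193 genes (3.06%), of which 272 were higher (1.5%) and 285 lower (1.57%) in the PILEC effect, and 215 of the 557 reached a 2-fold size. Menin loss changed 663 genes in mESCs (3.64%; 234 higher, 1.29%, and 429 lower, 2.36%) and 1216 genes in PILECs (6.68%; 412 higher, 2.26%, and 804 lower, 4.42%). Among genes that reached 7 in both cell types 320 differences were called (3.26%), with 76 (7.31%) among those reaching it in mESCs only, 97 (8.07%) in PILECs only and 64 (1.04%) in neither. A gene could enter a class through the 1 group in which it had changed, so that these shares are partly set by the split and are not compared. The wt arrays were close replicates, with an SD between arrays of 0.112 in mESCs and 0.109 in PILECs against 0.186 and 0.147 in the menin-null groups, and the number of calls rested on them. Without wt mESC array 1 or 2 the count of called differences was 66 or 75, and without wt PILEC array 1 or 2 it was 72 or 75. Without menin-null mESC array 1 or 2 it was 618 or 800, and without menin-null PILEC array 1 or 2 it was 245 or 209. The counts of changed genes moved likewise, to 44, 66, 347 and 1430 in mESCs without wt array 1, wt array 2, menin-null array 1 and menin-null array 2, and to 186, 143, 451 and 403 in PILECs without the same arrays of that cell type. Leaving out an array of the other cell type gave 269 in mESCs without either wt PILEC array and 600 in PILECs without either wt mESC array. Of 96 genes named by the rule in the methods that had a called difference, 36 kept the call whichever array was left out.

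**Figure D1:**
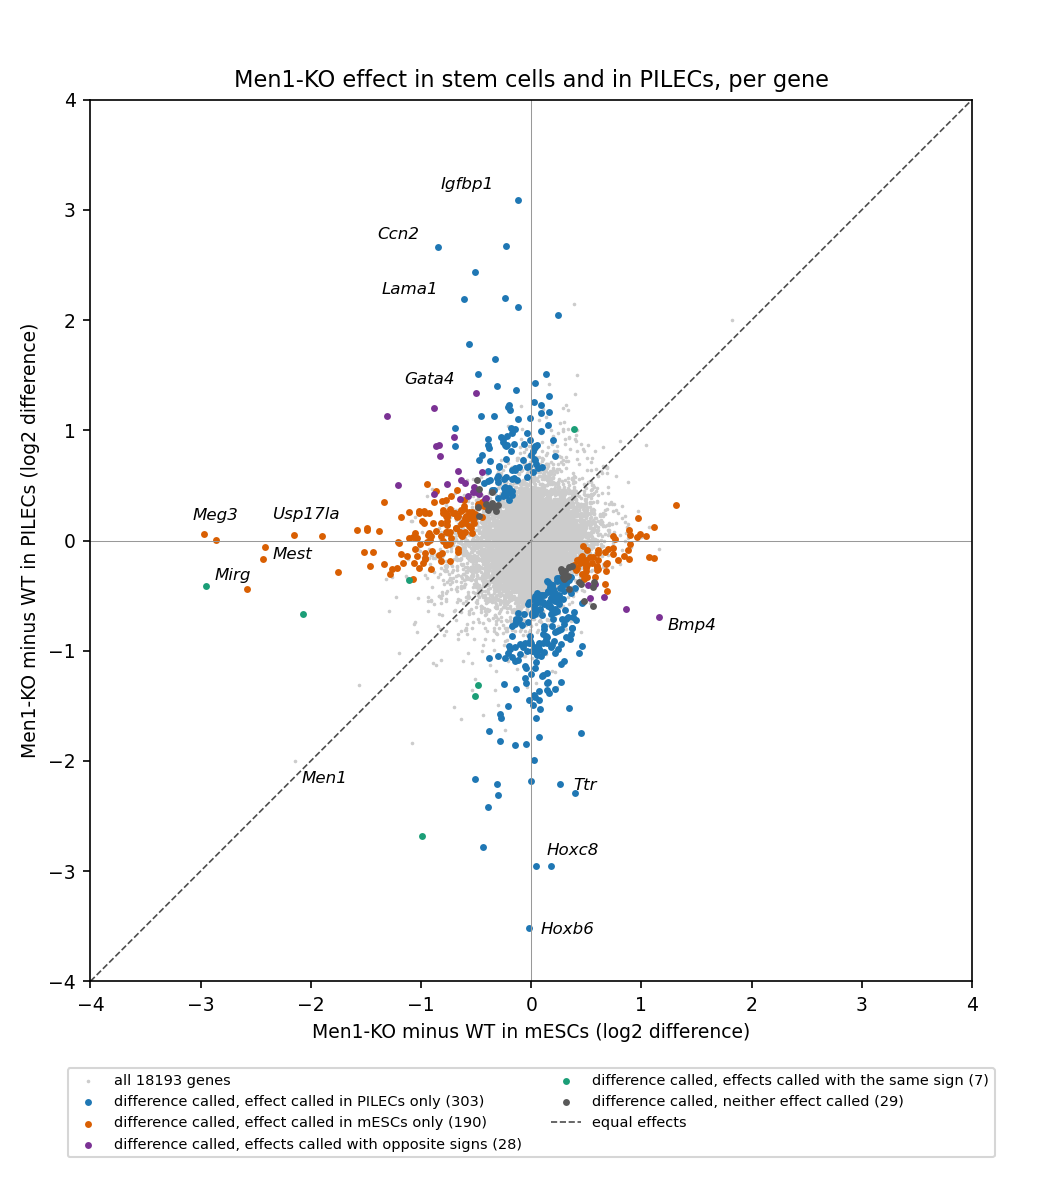
Effect of menin loss in mESCs (horizontal) and in PILECs (vertical), both as log2 differences between menin-null and wt group means, for 18193 genes (grey) with the 557 called differences coloured by where the effect itself was called. Men1 lies near the dashed line of equal effects, Meg3, Mirg and Mest lie far to the left near the horizontal axis, and Hoxb6, Hoxc8 and Igfbp1 lie near the vertical axis.

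Of the 557 genes, 303 were changed by menin loss in PILECs only, 190 in mESCs only, 28 in both with opposite signs, 7 in both with the same sign, and 29 in neither on its own. Being called in 1 cell type and not in the other was a weaker statement than a called difference. Among the 539 genes called in mESCs and not in PILECs, the difference was called for 190 (35.3%), and among the 1092 called in PILECs and not in mESCs for 303 (27.7%). For the rest the data do not show that the effects differed. The same number can be read as a change in differentiation, because the difference of the effects equals the PILEC-minus-mESC step in menin-null cells minus that step in wt cells. The step was smaller in menin-null cells for 280 of the 557 genes and larger for 277, and it had the other sign for 96. These counts use the same arrays as the calls and describe them only. Across genes, which are not independent replicates, the effects in the 2 cell types had a Pearson correlation of 0.152.

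Genes of the Dlk1-Meg3 imprinted locus fell with menin loss in mESCs and were near their wt level in menin-null PILECs. This locus on mouse chromosome 12 expresses Dlk1 from the paternal chromosome and a series of non-coding RNAs, Meg3, Rian and Mirg, from the maternal one. Meg3 read 12.94 and 12.90 in wt mESCs, 9.93 and 9.98 in menin-null mESCs, 14.06 and 14.10 in wt PILECs and 14.17 and 14.12 in menin-null PILECs. Only the menin-null mESC arrays stood low, 2.97 below wt on the log2 scale, and in PILECs the groups lay within 0.11 of each other. The difference of the effects was 3.03 (SE 0.11, 8.17-fold, adjusted p = 9.03e-05), and it was called for 11 of 11 Meg3 probe sets, with sizes from 1.32 to 3.42. The step from mESCs to PILECs was 1.16 in wt cells and 4.19 in menin-null cells, so that menin-null cells started lower and ended at the same level.

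Rian, the host of a small nucleolar RNA cluster, read 10.12 and 10.09 in wt mESCs and 7.10 and 7.39 in menin-null mESCs, against 11.85 and 10.90 in wt PILECs and 11.46 and 11.29 in menin-null PILECs. Its PILEC arrays overlapped between genotypes, and its difference of 2.86 (SE 0.38, adjusted p = 0.013) had the widest interval of the 4 genes, 1.99 to 3.74. Mirg, the host of a microRNA cluster, read 10.38 and 10.41 in wt and 7.54 and 7.35 in menin-null mESCs, and 10.13 and 10.08 in wt and 9.72 and 9.68 in menin-null PILECs. Mirg fell in PILECs too, by 0.41 (adjusted p = 0.0388), and the difference of 2.54 (adjusted p = 0.000369) is one of size and not of direction. For Dlk1 the values were 8.92 and 8.83, then 7.34 and 7.43 in mESCs, and 11.47 and 11.50, then 11.82 and 11.35 in PILECs, a difference of 1.58 (SE 0.20, adjusted p = 0.0126). The other probe set of Dlk1 was dimmer and had a difference of 0.29, which was the value (adjusted p = 0.439) when probe sets that may match several transcripts were left out, with 3 genes of the locus then called. With all probe sets considered, all 4 measured genes of the locus had a called difference, and 3 of them were near their wt level in menin-null PILECs. The locus was picked with knowledge that the study reports it, and its count is no independent evidence. Dlk1 lost the call without any of the 4 wt arrays (adjusted p up to 0.0776), and Rian without either wt mESC or either menin-null PILEC array (up to 0.0649), which left 2 called genes without wt mESC array 1 or 2.

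Other imprinted genes were divided in both directions. Of 38 measured, 6 had a higher and 2 a lower difference, against 1.5% and 1.57% of all genes. Mest, an imprinted hydrolase expressed in mesoderm, read 11.18 and 11.16 in wt and 8.69 and 8.79 in menin-null mESCs, and 12.86 and 13.13 in wt and 13.09 and 12.56 in menin-null PILECs. It was low in menin-null mESCs, as Meg3 was. Unlike those of Meg3, its PILEC groups overlapped, and its difference was 2.26 (SE 0.24, adjusted p = 0.00647). Nnat, a small membrane protein of neural and endocrine cells, read 8.67 and 8.79, then 6.93 and 7.03 in mESCs, and 14.65 and 14.59, then 14.28 and 14.37 in PILECs, a difference of 1.46 (adjusted p = 0.0026). Plagl1, a zinc finger regulator of growth, read 8.79 and 8.74 in wt and 5.99 and 6.39 in menin-null mESCs against 13.53 and 13.81 and 13.35 and 13.11 in PILECs. Its difference of 2.13 (adjusted p = 0.00625) belongs to 1 of 3 probe sets, since the other two had differences of the other sign, down to -0.63. Nap1l5, a nucleosome assembly protein family member, went the other way. It read 6.03 and 5.88, then 5.50 and 5.79 in mESCs, and 9.32 and 9.17 in wt but 7.05 and 7.01 in menin-null PILECs, so that only the wt PILEC arrays stood high, and its difference was -1.90 (SE 0.17, adjusted p = 0.00276). The imprinted Igf2r, the receptor that clears IGF2, rose in PILECs by 0.99 and had a difference of 0.90 (adjusted p = 0.0222), while Igf2, a fetal growth factor, did not differ detectably (0.15, 95% interval -0.20 to 0.51). With any of the 4 wt arrays left out, 5 of the 8 calls in this list stood.

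**Figure D2:**
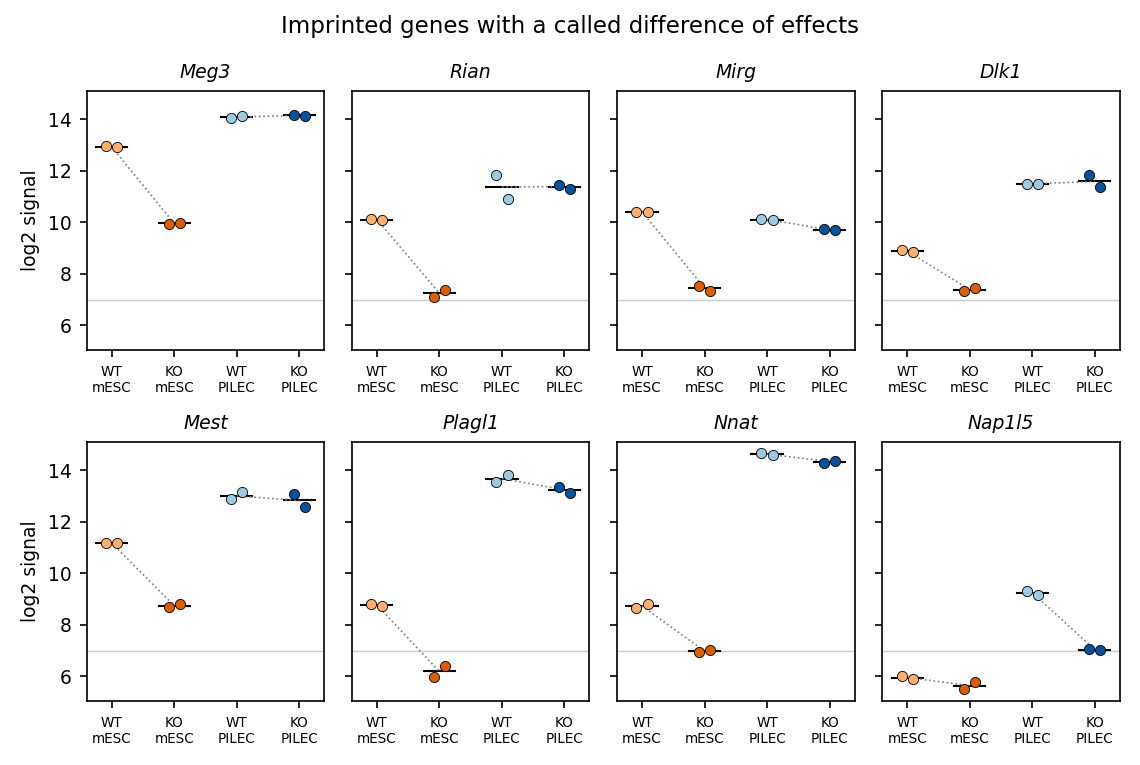
Log2 signal (vertical axis) of 8 imprinted genes in the 8 arrays, each point an array, each bar a group mean of 2 arrays, dotted lines joining wt and menin-null cells (labelled KO) of a cell type, and the grey line at 7 the limit used for the split. Meg3, Rian, Mirg, Dlk1, Mest, Plagl1 and Nnat drop in mESCs, and Nap1l5 drops in PILECs.

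The sequences upstream of 2 of these genes are shown because Meg3 and Mest fell in mESCs alone, with those of Krt18 and Krt8, the keratin partners whose effects had opposite signs in the cell types. Each is the 250 bases before the first start listed for the gene in RefSeq on GRCm38.p6, 5′ to 3′ on the strand of the gene, with CG dinucleotides, the sites of DNA methylation in mammals, in capitals. Meg3 lies at chr12:109540746-109540995 (plus strand), Mest at chr6:30733256-30733505 (plus), Krt18 at chr15:102027966-102028215 (plus) and Krt8 at chr15:102004343-102004592 (minus).
Meg3: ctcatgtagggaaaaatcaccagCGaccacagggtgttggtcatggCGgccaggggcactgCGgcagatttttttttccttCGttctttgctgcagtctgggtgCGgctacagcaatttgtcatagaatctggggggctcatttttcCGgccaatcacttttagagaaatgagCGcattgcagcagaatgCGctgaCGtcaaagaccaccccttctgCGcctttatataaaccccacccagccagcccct
Mest: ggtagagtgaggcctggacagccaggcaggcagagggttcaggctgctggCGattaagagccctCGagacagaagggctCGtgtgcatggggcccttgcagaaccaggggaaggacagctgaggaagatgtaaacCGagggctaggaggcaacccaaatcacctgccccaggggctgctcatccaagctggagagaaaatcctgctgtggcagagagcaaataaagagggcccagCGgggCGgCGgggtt
Krt18: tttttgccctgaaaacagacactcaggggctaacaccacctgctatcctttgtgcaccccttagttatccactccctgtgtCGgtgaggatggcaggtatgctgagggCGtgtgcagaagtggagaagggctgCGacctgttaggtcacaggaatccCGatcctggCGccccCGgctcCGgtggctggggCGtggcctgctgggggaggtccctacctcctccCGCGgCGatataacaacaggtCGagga
Krt8: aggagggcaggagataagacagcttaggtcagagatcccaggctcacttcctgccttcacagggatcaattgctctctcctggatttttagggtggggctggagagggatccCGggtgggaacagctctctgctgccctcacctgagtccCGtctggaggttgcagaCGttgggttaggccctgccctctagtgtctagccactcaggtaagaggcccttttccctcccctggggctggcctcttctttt
These windows held 10 CG in Meg3, 7 in Mest, 12 in Krt18 and 3 in Krt8. Meg3 had 2 listed starts and Mest 3, against 1 each for Krt18 and Krt8. The windows at the other starts were not examined, so these counts need not hold for every promoter of Meg3 or Mest. Whether the printed windows are the promoters at which the study reports loss of H3K4me3 was not examined. Among the 14452 genes with such a window, 59.4% had at least as many as Meg3, 68.8% as Mest, 53.3% as Krt18 and 86.5% as Krt8. Only 79.4% of the tested genes had a window, so called genes were not compared with the rest on this measure.

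Many Hox genes fell in PILECs with menin loss. Hox genes encode homeodomain factors that set position along the body axis. Of 33 measured, 14 had a lower difference and 0 a higher one, against 1.57% and 1.5% of all genes. In PILECs 17 of the 33 fell, and in mESCs 0 were called in either direction, with median effects of -0.67 and -0.0033. Only 4 of the 33 reached 7 in mESCs, all of which reached it in PILECs too, and 12 reached it in PILECs only. The mESC values below are therefore mostly under the limit, where a loss could not be seen. Hoxb6 read 5.09 and 5.45 in wt and 5.24 and 5.26 in menin-null mESCs, 9.27 and 8.80 in wt PILECs and 5.45 and 5.57 in menin-null PILECs. Only wt PILECs stood high, and the PILEC groups were 3.52 apart. Its difference was -3.50 (SE 0.24, 11.3-fold, adjusted p = 0.00138), the most negative of all genes that reached 7 in PILECs only. Hoxc8 read 4.19, 4.14, 4.18 and 4.24 in the mESC arrays, 8.36 and 8.14 in wt PILECs and 5.21 and 5.39 in menin-null PILECs, with a difference of -2.99 (SE 0.15, adjusted p = 0.000369). Hoxb5 read 8.03 and 7.28 in wt PILECs and 5.06 and 4.35 in menin-null PILECs, and Hoxb2 9.15 and 9.0 against 6.74 and 7.05. Their differences were -3.14 (SE 0.39, adjusted p = 0.0119) and -2.18 (SE 0.27, adjusted p = 0.0119). Meis1, a partner that binds DNA with Hox proteins, fell in PILECs by 1.10 and had a difference of -1.15 (adjusted p = 0.0284). A second probe set of Meis1 had a difference of -1.06 that was not called (adjusted p = 0.15 over all probe sets), and the remaining one, at a mean of 5.78, had 0.0071. Hoxb6 and Hoxc8 kept the call with any array left out, Hoxb5 lost it without either wt mESC array (adjusted p up to 0.0538) and Hoxb2 without either wt PILEC array (up to 0.0702). Meis1 lost it without any of the wt and menin-null PILEC arrays or either wt mESC array (up to 0.12). Across the list the count of 14 became 4 and 5 without wt mESC array 1 and 2, 4 without either wt PILEC array, and 9 and 7 without those of menin-null PILECs. The list was picked with the reports of the study on Hox genes known.

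Part of the striated muscle genes were lower in the PILEC effect. Of 33 measured, 11 had a lower and 0 a higher difference, against 1.57% and 1.5% of all genes. In PILECs 17 fell, against 4.42% of all genes, and in mESCs 0 were called. Myog, a factor that drives muscle differentiation, read 5.86, 5.62, 6.06 and 6.23 in mESCs, 9.24 and 9.52 in wt PILECs and 7.40 and 6.78 in menin-null PILECs, a difference of -2.69 (SE 0.29, adjusted p = 0.00647). Actc1, cardiac actin, read 11.29 and 11.60 in wt and 8.90 and 8.43 in menin-null PILECs and between 5.89 and 6.62 in mESCs, with a difference of -2.33 (SE 0.29, adjusted p = 0.0119). In both genes the wt PILEC arrays stood above all others. The embryonic myosin Myh3 and the light chain Myl4 had differences of -2.01 and -1.86 (adjusted p = 0.0116 and 0.0179), though a second probe set of Myl4 had only -0.18. Tnnt1, a slow muscle troponin, differed in that it had reached 7 in mESCs as well. It read 7.83 and 7.79 in wt and 7.98 and 8.08 in menin-null mESCs, 7.58 and 7.78 in wt PILECs and 6.38 and 6.28 in menin-null PILECs, a difference of -1.57 (SE 0.14, adjusted p = 0.00272). Mylpf and Tnnc1 also reached 7 in both cell types, with differences of -1.42 and -1.34 (adjusted p = 0.0196 and 0.0213). The 7 muscle markers summed to 6527 and 8129 in wt PILECs, to 2387 and 1658 in menin-null PILECs and to between 1015 and 1105 in mESCs. The brightest of them were Actc1 and Acta1 in wt PILECs, but Acta1 and Des in mESCs. Of the 7, Des and Myod1 had PILEC effects of -0.23 and -0.33 that were not called (adjusted p = 0.258 and 0.173), and the other 5 fell. The part of muscle cell number in the result was not tested. The count of 11 became 3 and 4 without wt mESC array 1 and 2, 5 and 1 without wt PILEC array 1 and 2, and 4 without menin-null PILEC array 2. Without wt PILEC array 2, Myog had an adjusted p of 0.0514 and Myh3 of 0.0515. Actc1 lost the call without wt mESC array 1 or either wt PILEC array (up to 0.0712), Myl4 without any wt array or menin-null PILEC array 2 (up to 0.095), Mylpf without the same arrays (up to 0.0885) and Tnnc1 without either wt mESC array, wt PILEC array 2 or menin-null PILEC array 2 (up to 0.0947).

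Many genes of the parietal endoderm and basement membrane were higher in the PILEC effect. Parietal endoderm is the early embryonic layer that lays down a thick basement membrane of laminin and type IV collagen. Of 18 measured genes 10 had a higher and 0 a lower difference, against 1.5% and 1.57% of all genes. The median effects were -0.42 in mESCs and 0.66 in PILECs. Lama1, a laminin alpha chain, read 10.03 and 10.03 in wt and 9.35 and 9.50 in menin-null mESCs, and 8.65 and 8.70 in wt and 11.07 and 10.66 in menin-null PILECs. It was thus lowest in wt PILECs and highest in menin-null PILECs, with a difference of 2.80 (SE 0.19, 6.95-fold, adjusted p = 0.00138). The step from mESCs to PILECs changed sign, from -1.36 in wt to 1.44 in menin-null cells. Col4a2 read 9.45, 9.45, 8.85 and 8.93 in the wt and menin-null mESC arrays, 10.76 and 10.85 in wt and 12.82 and 12.36 in menin-null PILECs, and Col4a1 read 10.74, 10.70, 10.20 and 10.29, then 11.94 and 12.10, then 13.75 and 13.31. These chains of type IV collagen rose with differentiation in both genotypes and more so in menin-null cells, by 2.35 and 1.99 (adjusted p = 0.00272 and 0.00536). The laminin chains Lamb1 and Lamc1 had differences of 1.58 and 1.44 (adjusted p = 0.0121 and 0.0165), and the matrix protein Sparc 1.13 (adjusted p = 0.0272). Sparc was the case among these in which the fall in mESCs was called (-0.67, adjusted p = 0.0422) and the rise in PILECs was not (0.46, adjusted p = 0.0908). Summed over all 18 markers the linear signal was 19710 and 19494 in wt and 14242 and 14683 in menin-null mESCs, and 23710 and 26648 in wt and 53047 and 39857 in menin-null PILECs. The part of the number of such cells was not tested. The count of 10 became 4 and 6 without wt mESC array 1 and 2 and 5 without either wt PILEC array, while Lama1, Col4a1 and Col4a2 kept the call with any array left out.

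Of 13 measured mesendoderm genes 3 had a higher and 1 a lower difference (1.5% and 1.57% over all genes), with a median of -0.11 and 7 negative values. Gata4, a factor of extra-embryonic and definitive endoderm, read 7.83 and 7.88 in wt and 7.32 and 7.40 in menin-null mESCs, and 6.32 and 6.39 in wt and 7.70 and 7.68 in menin-null PILECs. It fell in mESCs and rose in PILECs, with a difference of 1.84 (SE 0.11, adjusted p = 0.000864). A second probe set of Gata4, at a mean of 6.33, had effects of -0.16 and 0.91. Its difference of 1.07 was not called (adjusted p = 0.16 over all probe sets). Sox17 read 7.47 and 7.66, then 7.26 and 7.26 in mESCs, and 6.41 and 6.77, then 8.02 and 7.95 in PILECs, a difference of 1.70 (SE 0.18, adjusted p = 0.00647). Foxa2 rose in PILECs by 0.88, with a difference of 0.94 (adjusted p = 0.0171), but lost the call without any wt array or menin-null PILEC array 2 (adjusted p up to 0.0912). Eomes, which acts earlier, in mesendoderm, had a lower difference of -1.0 (adjusted p = 0.0218), lost without any wt array or menin-null PILEC array 1 (up to 0.102). Gata6, a relative of Gata4, had a difference of 0.80 that was not called (adjusted p = 0.082). Of the 4 calls, 2 stood without any 1 of the wt arrays. Ttr, the thyroid hormone carrier made by visceral endoderm, liver, choroid plexus and islets, read 7.36 and 7.61 in wt and 7.89 and 7.60 in menin-null mESCs, 10.62 and 10.73 in wt PILECs and 8.55 and 8.39 in menin-null PILECs. Only wt PILECs stood high, and its difference of -2.47 (SE 0.18, adjusted p = 0.0018) was the most negative among genes reaching 7 in both cell types and was called for 4 of 4 probe sets.

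Further genes that reached 7 in both cell types and had large positive differences were Ccn2, Srgn and Cdhr1. Ccn2, a matricellular protein and known target of YAP and TGF-beta signalling, read 10.63 and 10.57 in wt and 9.67 and 9.83 in menin-null mESCs, and 7.40 and 7.70 in wt and 10.64 and 9.77 in menin-null PILECs. Its difference of 3.50 (SE 0.35, 11.3-fold, adjusted p = 0.00527) was the largest among genes that reached 7 in both, and it lost its decline with differentiation: the step was -3.05 in wt and 0.46 in menin-null cells. Srgn, the core protein of a secretory granule proteoglycan, behaved alike, with 9.99 and 9.99, then 9.41 and 9.55 in mESCs, and 7.95 and 8.09, then 10.73 and 10.19 in PILECs, and a difference of 2.95 (SE 0.23, adjusted p = 0.00195). Cdhr1, a cadherin-related protein of photoreceptors, read between 6.74 and 7.09 in mESCs, 6.74 and 6.40 in wt PILECs and 8.67 and 8.86 in menin-null PILECs (difference 2.44, SE 0.18, adjusted p = 0.0018). Only its menin-null PILEC arrays stood high. All 3 kept the call with any array left out.

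**Figure D3:**
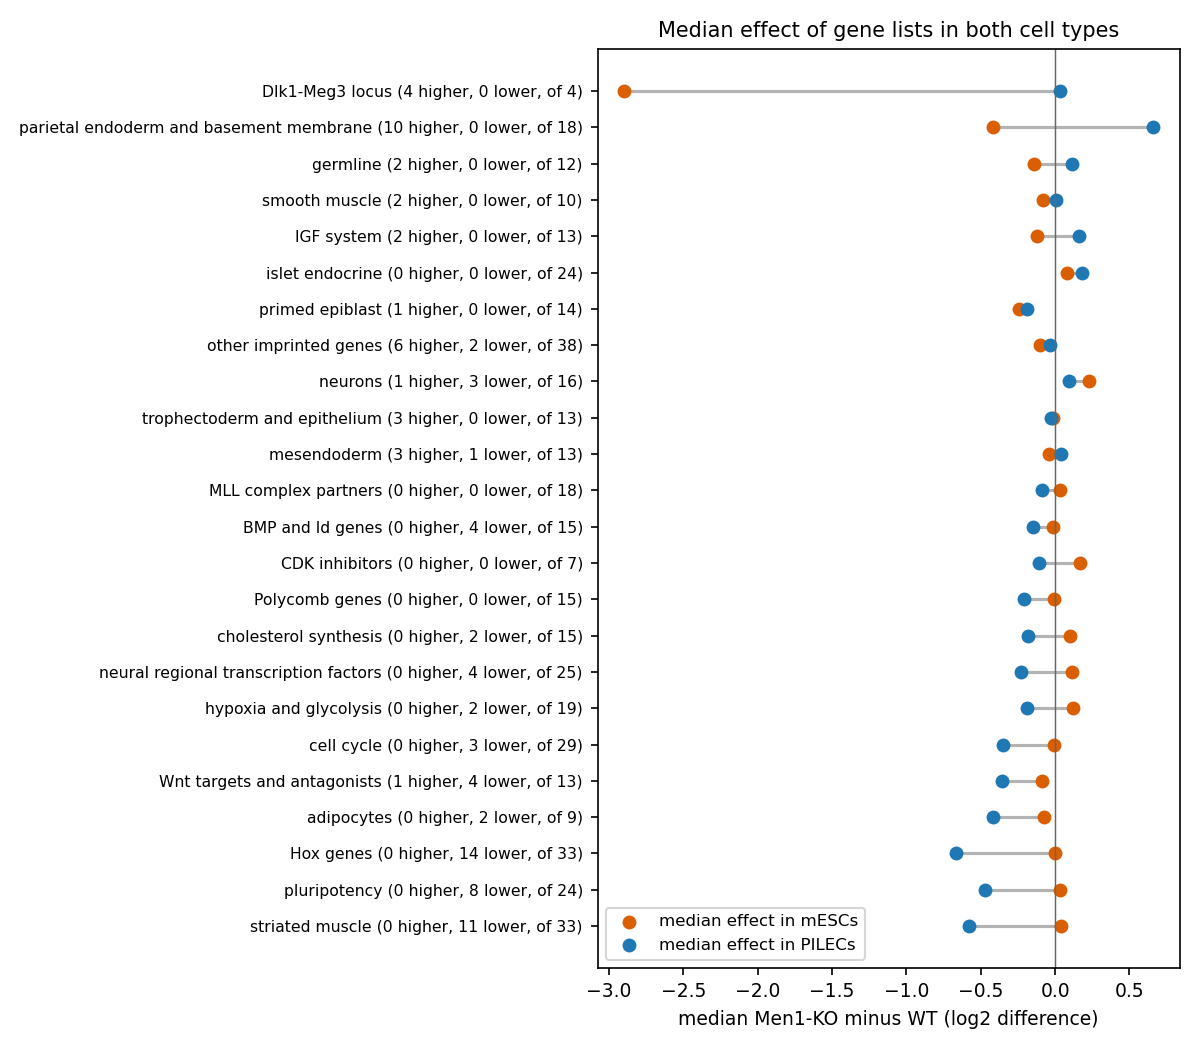
Median effect of menin loss (log2 difference) over the measured members of 24 gene lists in mESCs (orange) and PILECs (blue), ordered by the median difference of the effects. The number of members with a called higher or lower difference, of those measured, stands after each name, from 4 higher of 4 at the Dlk1-Meg3 locus to 11 lower of 33 for striated muscle.

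Of 24 pluripotency genes 11 fell and 1 rose in menin-null PILECs, and in mESCs 1 rose and 0 fell. The difference was lower for 8 and higher for 0 (1.57% and 1.5% over all genes), and the median effects were 0.034 in mESCs and -0.47 in PILECs. Nanog, a core pluripotency factor, read 12.63 and 12.70 in wt and 12.68 and 12.79 in menin-null mESCs, and 9.05 and 8.83 in wt and 7.94 and 8.07 in menin-null PILECs, a difference of -1.01 (SE 0.15, adjusted p = 0.0179). Zfp42 and Dppa5a, also marks of naive stem cells, had differences of -1.05 and -1.04 (adjusted p = 0.0128 and 0.0124). The 7 stem cell markers summed to 10914 and 9832 in wt and 6930 and 7387 in menin-null PILECs, and the part of remaining stem cells in PILEC cultures was not tested. Sox2, shared by stem and neural cells, differed by 0.04 (95% interval -0.24 to 0.33). Tcl1, a co-activator of the kinase AKT, was different in kind: it rose in mESCs by 1.04 (adjusted p = 0.00392) and not detectably in PILECs, where it lay near 6. Of 29 cell cycle genes 12 fell in PILECs, against 4.42% of all genes, and 0 were called in mESCs. The difference was lower for 3 of the 29 and higher for 0, against 1.57% and 1.5% of all genes. Its median was -0.36, and 27 of the 29 values were negative. The 3 were Cdk1, Ccnb2 and Bub1, at -0.71, -0.71 and -0.53 (adjusted p = 0.0251, 0.0284 and 0.0436). No pluripotency gene kept its call without wt mESC array 1 or 2, and 1 did without wt PILEC array 1, 5 without the other, and 5 without menin-null PILEC array 2. The cell cycle calls went to 0 without any wt array or menin-null PILEC array 2, and to 1 where menin-null PILEC array 1 was left out, with an adjusted p of up to 0.188 for Bub1.

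Effects called in both cell types with opposite signs were found for 28 genes, all of which had a called difference. Of these, 22 were lower in menin-null mESCs and higher in menin-null PILECs, and 6 went the other way. The wt level was higher in mESCs than in PILECs for 21 of the 28, and the step between cell types was smaller in menin-null cells for 20. The step had the other sign in menin-null cells for 11. Over all 557 called differences these counts were 315, 280 and 96. Choosing genes by opposite signs partly fixes such counts, which are description only. Some epithelial genes were among the 28. Krt18, which pairs with Krt8 in the filaments of simple epithelia, read 10.35 and 10.36 in wt and 9.45 and 9.58 in menin-null mESCs, and 6.77 and 6.82 in wt and 7.63 and 7.71 in menin-null PILECs. Krt8 read 10.51 and 10.48, then 9.68 and 9.66 in mESCs, and 7.48 and 7.15, then 8.22 and 7.95 in PILECs. For both keratins the genotypes did not overlap in either cell type, and the order of the genotypes turned over. Their differences were 1.71 (SE 0.12, adjusted p = 0.00138) and 1.60 (SE 0.19, adjusted p = 0.00965), with 3 of 3 Krt8 probe sets called. Krt19 and the tight junction protein Cldn6 followed, with effects of -0.88 and -0.76 in mESCs and 0.42 and 0.51 in PILECs (adjusted p of the difference = 0.00524 and 0.00527). Epithelial genes did not share this as a group. Of 13 measured genes of trophectoderm and epithelium, Cldn6 among them, 3 had a higher and 0 a lower difference (1.5% and 1.57% over all genes). Their median difference was -0.064, with 6 positive and 7 negative values, and in PILECs 2 rose and 2 fell.

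Other genes whose effect changed sign had varied roles. Ctsh, a lysosomal protease, read 8.16 and 8.07 in wt and 7.23 and 7.23 in menin-null mESCs, and 6.15 and 6.53 in wt and 7.53 and 7.56 in menin-null PILECs (difference 2.08, SE 0.17, adjusted p = 0.0026). F3, tissue factor, read 8.12 and 7.97, then 7.05 and 7.32 in mESCs, and 6.71 and 6.84, then 7.73 and 7.53 in PILECs (difference 1.72, SE 0.17, adjusted p = 0.00527). Car4, a membrane carbonic anhydrase, and Fgfbp1, a carrier of fibroblast growth factors, had differences of 1.64 and 1.71 (adjusted p = 0.00527 and 0.00527). In all 4 the menin-null cells of the 2 types lay closer together than the wt cells did, which choosing genes by opposite signs partly fixes. Rhox5, an X-linked homeobox gene, was lower in menin-null mESCs by 0.66 and higher in menin-null PILECs by 0.63, with a difference of 1.29 (SE 0.10, adjusted p = 0.00215). Glipr1 had the largest difference of the 28, 2.44 (SE 0.34, adjusted p = 0.0166), with wide arrays of 6.60 and 7.22 in menin-null mESCs and 7.60 and 7.03 in menin-null PILECs. Its other probe set, at a mean of 5.91, had a difference of 0.4 with both effects negative, and the mean of the probe sets gave 1.42 (adjusted p = 0.0255). Ebf3, a transcription factor of neurons and mesenchyme, went the other way, with 4.78 and 4.64 in wt and 5.64 and 5.49 in menin-null mESCs and 11.33 and 11.15 in wt and 10.57 and 10.69 in menin-null PILECs (difference -1.47, SE 0.15, adjusted p = 0.00536). Its mESC values were under the limit of 7. The opposite signs of Ebf3 rest on 1 of 3 probe sets, since the others had differences of -0.1 and -0.6 (adjusted p = 0.934 and 0.381 over all probe sets). The count of 28 depended on single arrays: it was 0 without either wt mESC array, 4 and 2 without wt PILEC array 1 and 2, 12 and 18 without those of menin-null PILECs, and 55 without menin-null mESC array 2. The called difference itself was examined only for those of the 28 named by rule, which favours large differences. It was kept with any array left out by Krt18, Krt19, Cldn6, Ctsh, F3, Car4, Fgfbp1, Rhox5, Gata4 and Bmp4. Ebf3 kept it too, on its 1 probe set. For Gata4 also, only 1 of 2 probe sets had a called difference with all arrays in. Krt8 lost it without wt mESC array 1, and Glipr1 without any wt array. For the rest of the 28 this was not examined.

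**Figure D4:**
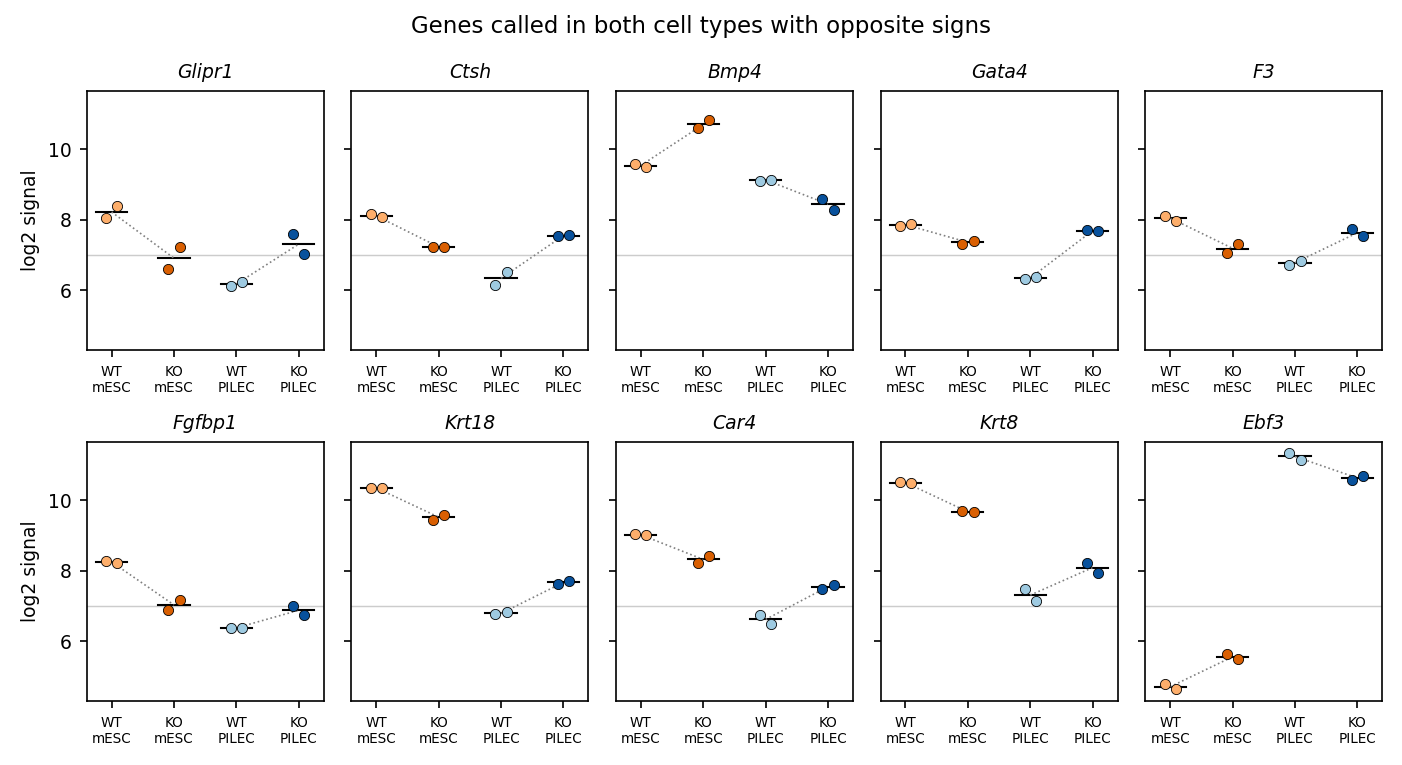
Log2 signal (vertical axis) of the 10 genes with the largest difference among those called in both cell types with opposite signs, each point an array, each bar a group mean of 2 arrays, dotted lines joining wt and menin-null cells (KO), and the grey line at 7 the limit used for the split. For 8 genes the line falls in mESCs and rises in PILECs, and for Bmp4 and Ebf3 it rises in mESCs and falls in PILECs.

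Bmp4, a secreted ligand of the bone morphogenetic protein pathway that keeps stem cells undifferentiated through Id genes, read 9.57 and 9.50 in wt and 10.59 and 10.82 in menin-null mESCs, and 9.11 and 9.14 in wt and 8.59 and 8.28 in menin-null PILECs. It rose with menin loss in mESCs and fell in PILECs, with a difference of -1.85 (SE 0.17, adjusted p = 0.00458). The pathway's target genes Id1, Id4 and Smad6 also had lower differences, -1.13, -0.97 and -0.77 (adjusted p = 0.0195, 0.0495 and 0.0285). Id1 read 10.86 and 10.85, then 11.18 and 11.35 in mESCs, and 9.77 and 9.87, then 9.25 and 8.94 in PILECs, so that its groups separated in the direction of Bmp4 in both cell types, with the mESC effect of 0.41 not called (adjusted p = 0.117). These were 4 of 15 BMP and Id genes, with 0 in the other direction, against 1.57% lower and 1.5% higher among all genes. Without any 1 of the wt arrays 1 of the 4 stayed called, and without either menin-null PILEC array 2 did, with the adjusted p of Id4 reaching 0.183, of Smad6 0.122 and of Id1 0.103.

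Of 13 measured Wnt targets and antagonists 4 had a lower and 1 a higher difference, against 1.57% and 1.5% of all genes. Rspo1 and Rspo3, R-spondins that enhance Wnt signals, read 7.52 and 7.21 and 8.07 and 8.07 in wt PILECs, against 5.77 and 5.75 and 6.24 and 6.45 in menin-null PILECs, with differences of -1.65 and -1.35 (adjusted p = 0.0165 and 0.0348). A second probe set of Rspo3 had only -0.087. The Wnt-binding antagonists Sfrp1 and Sfrp2 had differences of -0.95 and -0.75 (adjusted p = 0.0421 and 0.0287), while Lef1, a nuclear mediator of Wnt signals, fell in mESCs by 0.96 and had a higher difference of 0.79 (adjusted p = 0.0174). All 5 calls depended on single arrays: 1 stayed without wt mESC array 1 or menin-null PILEC array 1, and 0 without wt mESC array 2, either wt PILEC array or menin-null PILEC array 2.

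Among genes that reached 7 in PILECs only, Igfbp1 and S100g had the largest positive differences. Igfbp1, a secreted binding protein for insulin-like growth factors, read between 4.95 and 5.19 in mESCs, 6.69 and 6.36 in wt PILECs and 9.52 and 9.70 in menin-null PILECs, a difference of 3.21 (SE 0.18, 9.27-fold, adjusted p = 0.000574). S100g, a calcium-binding protein of absorptive epithelia, read between 5.62 and 5.93 in mESCs, 6.88 and 6.83 in wt PILECs and 9.36 and 9.69 in menin-null PILECs (difference 2.91, SE 0.16, adjusted p = 0.000574). Both were below 7 in wt PILECs and high in menin-null PILECs alone, and both kept the call with any array left out. The acute phase protease inhibitor Serpina3n, the ion transport regulator Fxyd3 and the neuronal calcium sensor Hpcal4 had differences of 1.81, 1.47 and 1.38 (adjusted p = 0.0214, 0.00647 and 0.02). Serpina3n lost the call without wt mESC array 2 or any PILEC array (adjusted p up to 0.108), Hpcal4 without any wt array (up to 0.106) and Fxyd3 without wt PILEC array 1 (0.0544). Adipoq, the fat cell hormone adiponectin, was high in wt PILECs alone, at 7.45 and 7.57 against 5.14 and 5.03 in menin-null PILECs and between 4.83 and 5.37 in mESCs. Its difference was -2.04 (SE 0.14, adjusted p = 0.0014). With Lpl, lipoprotein lipase (-0.83, adjusted p = 0.0142), it made 2 of 9 adipocyte genes with a lower difference, against 1.57% of all genes. Lpl lost the call without any wt array.

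Among the 1040 genes that reached 7 in mESCs only, 50 had a higher and 26 a lower difference, against 1.5% and 1.57% of all genes. A gene could enter this class through the 1 group in which it was high, so that these counts are partly set by the split. Gm20767, a predicted gene, read 7.03 and 7.05 in wt and 4.93 and 4.31 in menin-null mESCs and between 4.12 and 4.30 in PILECs. Usp17la, a deubiquitinase of a tandem gene family, read 8.97 and 8.79 in wt and 6.47 and 6.99 in menin-null mESCs and between 5.28 and 5.33 in PILECs. AF067061 read 9.68 and 9.73, then 7.86 and 7.76, and between 6.60 and 6.94 in PILECs. Menin-null mESCs lay between wt mESCs and PILECs in these genes, and the differences were 2.36, 2.20 and 1.94 (adjusted p = 0.00647, 0.00557 and 0.00276). Their PILEC values were under the limit of 7, where a fall could not be seen. Usp17la has near-identical relatives that its probes may not separate. Among lower differences Cnpy1, a protein first described in fibroblast growth factor signalling, read 9.22 and 9.14 in wt and 9.58 and 9.68 in menin-null mESCs. It read 6.74 and 6.61 in wt and 5.03 and 4.82 in menin-null PILECs (difference -2.20, SE 0.14, adjusted p = 0.00128). The Cnpy1 difference comes mostly from these PILEC values, which were under the limit. Nkx6-3 rose in mESCs alone, by 1.07, with a difference of -1.21 (adjusted p = 0.0307) that was lost without any wt or either menin-null PILEC array (up to 0.134). Nr0b1, a nuclear receptor of naive stem cells, read 11.58 and 11.61, then 11.94 and 12 in mESCs, and 5.98 and 5.68, then 5.02 and 5.06 in PILECs. Its difference of -1.17 (adjusted p = 0.0127) comes mostly from PILEC values under the limit and was lost without wt mESC array 1 or 2 (adjusted p = 0.0664 and 0.0623). Gm20767 missed the threshold without wt PILEC array 2 (adjusted p = 0.0527). Pax8 had a difference of -1.42 in 1 of 2 probe sets and 0.047 in the other.

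**Figure D5:**
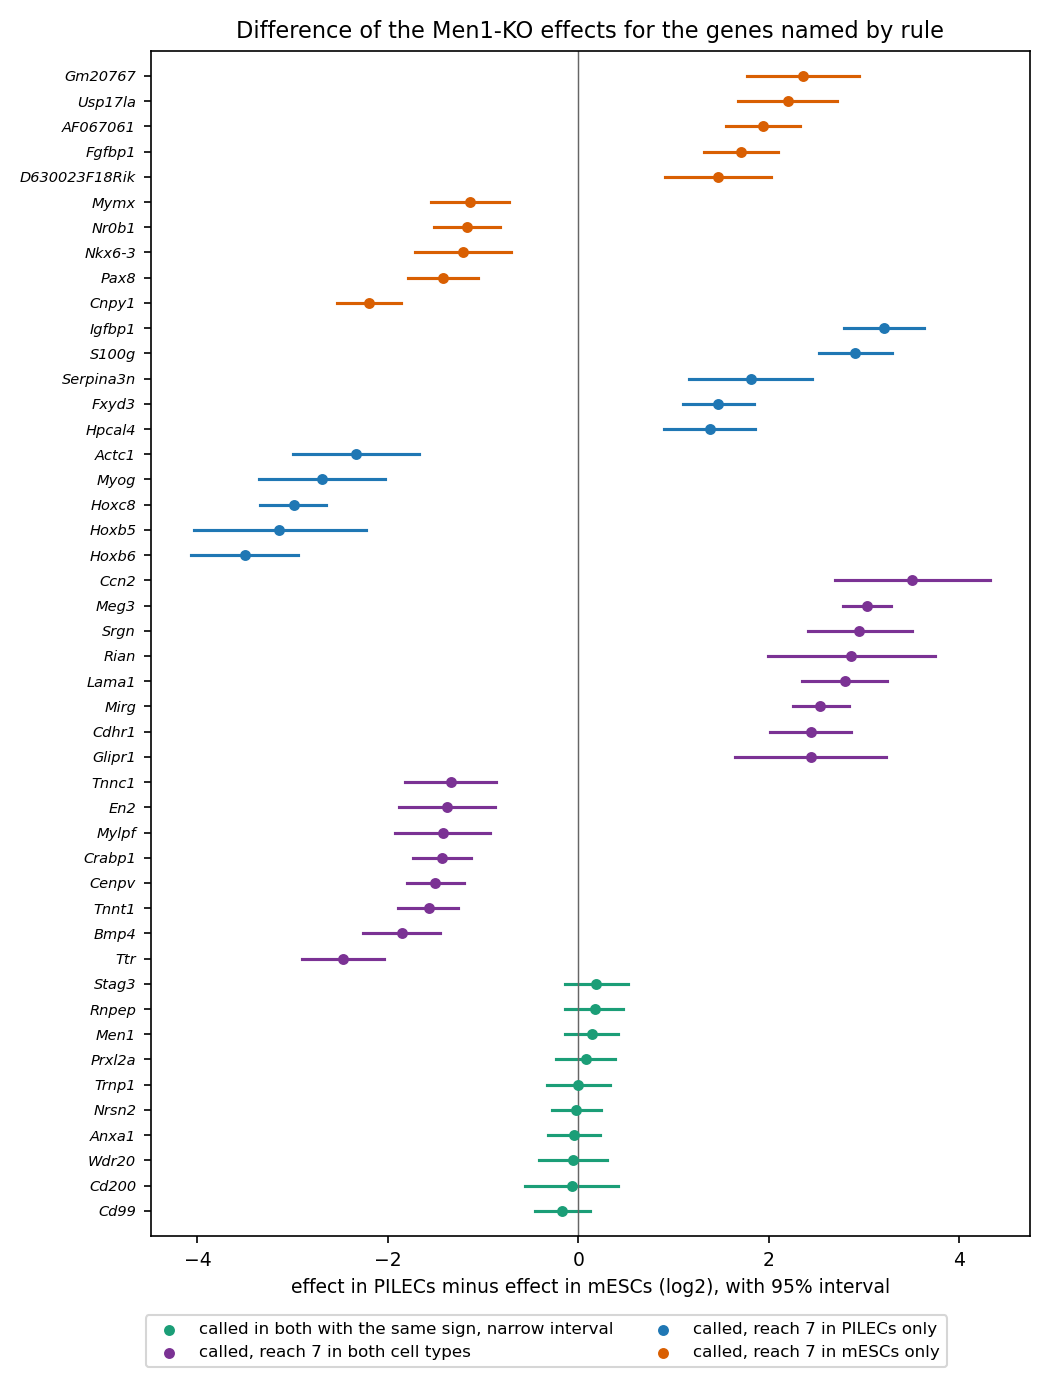
Difference of the effects of menin loss (PILEC effect minus mESC effect, log2, horizontal axis) with its 95% interval from the model for the genes named by rule, coloured by the split at 7 and by sharing of the effect. The intervals of the 10 genes changed alike in both cell types, Men1 among them, cross 0, and those of the other genes do not.

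Fewer genes were called in both cell types with the same sign than in 1 cell type only. A missing call does not show a missing effect, so this compares calls and not effects. In all, 96 genes were called in both with the same sign, 65 lower and 31 higher, and for 64 of them (66.7%) the 95% interval of the difference lay within 1.5-fold, which bounds how far the effects could be apart. Beside Men1 these included Cd99, a cell surface glycoprotein, with 9.42 and 9.39 in wt and 10.52 and 10.36 in menin-null mESCs and 8.57 and 8.60 in wt and 9.48 and 9.42 in menin-null PILECs. The effects of 1.04 and 0.87 differed by -0.17 (95% interval -0.45 to 0.12). Anxa1, a membrane-binding mediator of inflammation, fell by 0.68 in mESCs and by 0.72 in PILECs, and the interval of the difference was -0.32 to 0.23. A dimmer probe set of Anxa1, at a mean of 5.28, had effects of 0.26 and 0.055. Wdr20, a subunit of a deubiquitinase complex encoded on chromosome 12, fell by 0.77 and by 0.82 (interval -0.41 to 0.30) on its brightest probe set. Another, at a mean of 7.09, had effects of -0.57 and -0.15, and the dimmest, at 4.37, had 0.042 and -0.069. Cd200, an immune regulator, fell by 0.79 and by 0.86 (interval -0.56 to 0.42), with mESC values between 4.52 and 5.62. The meiotic cohesin Stag3 rose by 0.65 and 0.85 (interval -0.14 to 0.52). Uba1y, a Y-linked ubiquitin-activating enzyme chosen after its values were seen, rose in both, from 9.43 and 9.38 to 11.17 and 11.28 in mESCs and from 6.44 and 5.92 to 8.08 and 8.28 in PILECs, with an interval of -0.36 to 0.71 that is not narrow. For 7 genes the sign was shared and the size was not, among them Mirg, Calml4 (-2.07 in mESCs and -0.67 in PILECs, adjusted p of the difference = 0.0166) and Nxf3 (-0.99 and -2.68, adjusted p = 0.00527). Single arrays decided the counts here too. Without wt mESC array 1 or 2, 7 and 7 genes were called in both with the same sign, 2 and 2 of them with the narrow interval. Without wt PILEC array 1 or 2 these numbers were 12 and 7, with 5 and 5 narrow, and without menin-null PILEC array 1 or 2 they were 36 and 31, with 20 and 19 narrow. Without menin-null mESC array 1 or 2 they were 52 and 182, with 34 and 106 narrow.

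Some gene groups of the menin pathway or of the intended cell type had 0 called differences. Among 18 partners of menin in MLL complexes 0 differences were called (4 with an unadjusted p under 0.05), among 15 Polycomb genes 0 (8), among 7 CDK inhibitors 0 (3), and among 24 islet endocrine genes 0 (3). Over all genes 3.06% were called and 18.7% had an unadjusted p under 0.05, so that in lists of these sizes 0 calls do not set them apart. The CDK inhibitors Cdkn1b and Cdkn2c are known menin targets in endocrine cells. Cdkn1b had effects of -0.42 in mESCs (adjusted p = 0.056) and -0.49 in PILECs (adjusted p = 0.0247), with a difference of -0.07 (95% interval -0.38 to 0.23). Cdkn2c had effects of 0.17 and -0.41, neither called, and a difference of -0.58 (interval -0.91 to -0.24, adjusted p = 0.082). Ezh2, the Polycomb methyltransferase, fell in PILECs by 0.50 (adjusted p = 0.0159), and its difference of -0.49 had an adjusted p of 0.0709. Among islet genes, Ins2 lay between 6.65 and 7.28 in mESCs and had group means of 7.23 in wt and 7.37 in menin-null PILECs, a difference of -0.23 (interval -0.75 to 0.30). Of 16 neuronal genes 4 rose and 3 fell in menin-null mESCs, and 8 differences lay on each side of 0. Elavl3, Stmn3 and Tubb3 rose in menin-null mESCs by 0.96, 0.97 and 0.61 and lay within 0.20 of wt in PILECs, with differences of -0.93, -0.77 and -0.69 (adjusted p = 0.0285, 0.0325 and 0.0349). Nefl, a neurofilament chain, fell in mESCs by 0.45 (adjusted p = 0.0454). Gap43, a growth cone protein, fell in mESCs by 0.77 and had a higher difference of 0.99 (adjusted p = 0.0126). The 4 neuronal calls of 16 went to 0 without any wt array, to 1 and 2 without menin-null PILEC array 1 and 2.

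By position, and among genes that reached 7 in both cell types, called differences were most frequent on chromosome 8. There 33 of 561 genes were called (5.88%), 28 of them lower, with a median difference of -0.21 against -0.071 over all 9820 such genes. The median effect there was 0.15 in mESCs, the highest of any chromosome, and -0.042 in PILECs. On chromosome 12 the runs from Bcl11b to Mark3 (20 genes) and from Aldh6a1 to Gpatch2l (23 genes), whose ends were chosen after the values were seen, had a median effect of -0.66 in mESCs and -0.2 in PILECs. The median difference was 0.4 in each, with 3 genes called. Imprinted genes were left out of both runs. The first run surrounds the Dlk1-Meg3 locus, and 20 of its 20 other genes were lower in menin-null mESCs, by the sign of the effect, and 18 in menin-null PILECs.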

How the data were processed

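Total RNA from 4 groups of cultures (wt and menin-null mESCs and PILECs, 2 arrays each) was hybridised to Affymetrix mouse genome arrays, 1 array per sample, with group and replicate read from each title. The values are log2 signals per probe set as deposited by the authors, from 3.26 to 15.2. RMA and Partek stand in the submitters' processing notes (their versions are not given in the sources used here), whereas the methods of the study name Microarray Analysis Suite 5.0, so which software made the values is unresolved. The number of arrays, not a depth, limits the precision.

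Of 45101 probe sets, 64 controls, 9160 with no gene symbol and 932 with several were left out, and 34945 with 1 symbol gave 18193 genes. Where a gene had several, the 1 brightest on average across all 8 arrays stood for it. Names were matched to a mouse gene table of assembly GRCm38.p6 for 34741 probe sets, which was used for names and gene order, and its coordinates are printed only with the upstream sequences. A model with 1 mean per group was fitted to all genes with limma 3.58.1 in R 4.3.3 with data.table (version 1.17.8) and eBayes moderated the variances (residual degrees of freedom 4, prior 3.72). Benjamini-Hochberg adjustment ran over 18193 genes with a threshold of 0.05. Figures were drawn with matplotlib 3.10.9 and tables were handled with pandas 2.3.3 in Python 3.11.15. The fit was tested on simulated data with known changes.

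Named genes were Men1, the called genes with the largest differences in each class of the split (8 in each direction where both cell types reached 7, 5 in each direction otherwise), the 10 largest with opposite signs, the 10 shared genes with a narrow interval and the largest smaller effect, the 4 largest called members of each of 36 gene lists, and the Dlk1-Meg3 locus. The comparison, the lists and the genes were chosen with earlier results of these data known, and support nothing independently. Alternatives were another normalisation, scaling, choice of probe set, filter, variance model, threshold, a replicate block, and each array left out.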

Additional observations from a re-analysis of the deposited data

Results flagged for a closer look

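The effect of menin loss differed between mESCs and PILECs by a test of the difference itself for 557 genes, and this drew attention to the genes named by rule, whose differences of the effects (PILECs minus mESCs, log2) follow. Among genes that reached 7 in both cell types, Ccn2 (3.50), Meg3 (3.03), Srgn (2.95), Rian (2.86), Lama1 (2.80), Mirg (2.54), Glipr1 (2.44) and Cdhr1 (2.44) had higher differences, and Ttr (-2.47), Bmp4 (-1.85), Tnnt1 (-1.57), Cenpv (-1.50), Crabp1 (-1.43), Mylpf (-1.42), En2 (-1.38) and Tnnc1 (-1.34) had lower ones. Among genes that reached it in PILECs only these were Igfbp1 (3.21), S100g (2.91), Serpina3n (1.81), Fxyd3 (1.47) and Hpcal4 (1.38), and Hoxb6 (-3.50), Hoxb5 (-3.14), Hoxc8 (-2.99), Myog (-2.69) and Actc1 (-2.33). Among genes that reached it in mESCs only they were Gm20767 (2.36), Usp17la (2.20), AF067061 (1.94), Fgfbp1 (1.71) and D630023F18Rik (1.47), and Cnpy1 (-2.20), Pax8 (-1.42), Nkx6-3 (-1.21), Nr0b1 (-1.17) and Mymx (-1.14). Further genes with effects of opposite sign were Ctsh (2.08), Gata4 (1.84), F3 (1.72), Krt18 (1.71), Car4 (1.64), Krt8 (1.60) and Ebf3 (-1.47), and at the Dlk1-Meg3 locus Dlk1 (1.58) joined the others. Outside the genes tested, 75 of 9160 probe sets with no gene symbol had a called difference when all 45037 probe sets were tested, of which 42 had a mean of at least 7, and 21 of 932 probe sets with several symbols did. These transcripts are not named here.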

How the results depend on the processing

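In the order called differences, genes changed in mESCs, genes changed in PILECs, genes called in both with the same sign, with opposite signs, and with the same sign and a narrow interval, the counts were 557, 663, 1216, 96, 28 and 64. With any 1 array left out they ranged from 66 to 800, 44 to 1430, 143 to 1622, 7 to 182, 0 to 55 and 2 to 106. The trended and robust variance model gave 1402, 1343, 2348, 241, 79 and 191, and the model without moderation gave 47, 65, 356, 16, 5 and 14. A replicate block gave 286, 410, 734, 42, 12 and 31. The deviations of arrays with the same number had correlations between -0.277 and 0.209. They were negative between wt and menin-null groups and positive between groups of the same genotype (0.0641 and 0.209). Whether arrays with the same or another number shared a day or handling was not tested. Where the numbers of the menin-null arrays were exchanged, an alternative added after seeing the data, the replicate block called 673, 779, 1512, 119, 37 and 86. Testing only genes that reached 7 in some group gave 875 differences, 175 same, 48 opposite and 131 narrow, and only genes that reached 7 in both cell types 837 differences, 1832 changed in PILECs, 228 same, 70 opposite and 182 narrow. These filters test fewer genes. At 2-fold with an unadjusted p under 0.005 the counts were 248, 77, 151, 4 same and 1 opposite, and 215 differences had both an adjusted p under 0.05 and 2-fold, a threshold added after seeing the data. Leaving out probe sets that may match several transcripts gave 18 genes with opposite signs, and reversed the differences of Plagl1 (-0.45) and Ccn1 (-0.22). Apart from these settings the counts stayed within 1.5 times, and for quantile normalisation, a common median, probe set means and array weights the differences numbered 689, 589, 552 and 519. Of the 96 named genes with a called difference, 11 were called in every alternative that tested them and 36 with any 1 array left out. The cause of these shifts was not tested. Genes under 7 are not shown to exceed background, which limits effects in the cell type that lacks a gene.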

Other observations

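Some gene groups not described above had called differences as well. Of 15 genes of cholesterol synthesis, 2 had a lower and 0 a higher difference, Stard4, a sterol carrier, at -0.74 (adjusted p = 0.0218) and Msmo1, a sterol oxidase, at -0.68 (adjusted p = 0.0262). Of 19 genes of hypoxia and glycolysis, 2 had a lower difference, the oxygen sensor Egln3 at -1.06 (adjusted p = 0.0123) and the vasodilator peptide Adm at -0.84 (adjusted p = 0.0224). Egln3 rose in mESCs by 0.67 and Adm fell by 1.31 in PILECs and by 0.48 in mESCs, and 18 of the 19 differences were negative. Over all genes 3.06% had a called difference and 1.57% a lower one. With all probe sets tested, 1 of 3 was called for Stard4, 1 of 2 for Msmo1, 1 of 2 for Egln3 and 2 of 2 for Adm. The other probe set of Msmo1 had a difference of -0.066. Of 16 genes of the unfolded protein and amino acid response, 2 had a lower and 0 a higher difference, Shmt2 and Asns. With all probe sets tested, 1 of 4 was called for Shmt2 and 0 of 2 for Asns. On the brightest probe set, these enzymes of serine and asparagine metabolism had differences of -0.66 and -0.59 (adjusted p = 0.0307 and 0.0395). Without wt mESC array 1 or 2, all 6 of these calls were lost.

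Of 25 neural regional transcription factors, 4 had a lower difference, against 1.57% of all genes: Lhx2 (-1.24), En2 (-1.38), Zic1 (-0.80) and Pax8 (-1.42). Zic1 read 12.48 and 12.38 in wt and 11.30 and 11.53 in menin-null PILECs and under 5 in mESCs. Gfap, an astrocyte filament, read 7.41 and 7.45 in wt and 8.64 and 8.84 in menin-null PILECs, a difference of 1.15 (adjusted p = 0.0152) that 2 of 3 probe sets carried. Of 12 germline genes, Rhox5, a homeobox gene, and Mael, a piRNA pathway factor, had higher differences of 1.29 and 1.20. Rhox5 kept the call with any array left out, and Mael lost it without any of 7 arrays. Without any 1 of the wt PILEC arrays, 0 of the 4 neural factors stayed called. In 3 further groups limma called 0 differences: 15 ribosomal protein genes (0 with an unadjusted p under 0.05), 21 genes of oxidative phosphorylation (3, and all 21 values below 0) and 3 Y-linked genes (0).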
